A study of Mus musculus with 2 samples.

Results

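The 10 genes described here are those of the arginine enzymes and of alternative activation in macrophages. They are Arg1, Arg2, Nos2, Slc7a2, Ass1 and Odc1, which handle the amino acid arginine, and Retnla, Chil3 (older symbol Chi3l3), Mgl2 and Il4ra, which belong to the response to interleukin-4 (IL-4). They were chosen by name, with earlier results of these data known. All 10 were found among the 22886 genes of the files, each on a single line. The data are 2 RNA sequencing libraries of polyA RNA, 1 from each condition, so that differences have no replicate check and no test is given. Both are labelled as sorted aerobic tumor cells of subcutaneous LLC tumors (Lewis lung carcinoma, a mouse lung tumor line) grown in wild type C57BL/6 mice. One comes from mice given vehicle (the vehicle library) and the other from mice given clodronate, a drug that kills phagocytes which take it up (the clodronate library). The labels give no age, dose, time of sampling, number of mice or sorting markers, and a growth protocol in them names EML cells, a blood progenitor line, against the other labels.

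In both libraries genes of macrophages stood far above those of tumor epithelium. The 16 macrophage markers summed to 30581 RPKM (reads scaled to transcript length and to the reads of the library) in the vehicle library and 27843 RPKM in the clodronate library, and none of them was at 0. The 8 epithelial markers summed to 10.9 and 5.60 RPKM, with Epcam, Krt19 and Cldn4 listed at 0 in both and Krt7 past 3-fold on the lower side. Whether LLC cells express these epithelial markers was not checked, so their low sum does not show that tumor cells were few. Macrophage genes were high under a label of "tumor cells", and the values below are those of a sort rich in macrophage RNA. In such a bulk library fewer cells of a type and less RNA per cell cannot be told apart. RPKM values are scaled by length, so levels of different genes can be set beside each other within a library.

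Macrophages use arginine along competing routes. Inducible nitric oxide synthase (iNOS, the product of Nos2) turns it into nitric oxide and citrulline, whereas arginase turns it into urea and ornithine, from which ornithine decarboxylase makes polyamines. Arginase 1 is known as a gene of alternative activation, the state driven by IL-4 and IL-13 through the factor STAT6, and is also known to be high in macrophages of tumors, while iNOS is known as a gene of classical activation by interferon-gamma and microbial products.

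Arginase 1 was among the most abundant messages of the sort, and that of iNOS was among the weaker ones. Arg1 (chr10:24635012-24647276, mm9) had 475 RPKM in the vehicle library and 629 RPKM in the clodronate library, which placed it at rank 194 and rank 153 of all genes by level. Nos2 (chr11:78734360-78773626), whose approximate read numbers were 85 and 135, had 1.59 and 3.12 RPKM, at rank 10172 and rank 8956. The level of Arg1 was 299 times that of Nos2 in the vehicle library and 202 times in the clodronate library. Both genes were higher in the clodronate library, Arg1 by a log2 ratio of 0.40 and Nos2 by 0.67, where 1 RPKM was added to each value before the ratio to vehicle was taken, a step that shrinks the ratios of low genes. The predominance of Arg1 over Nos2 was thus a feature of both libraries.

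Arg2, the mitochondrial arginase (chr12:80231774-80273445), stood close to the level of single reads. It had 0.0598 RPKM in the vehicle library and 0.586 RPKM in the clodronate library. From the spacing of low values in the files, described with the processing, these levels correspond to about 1 read and about 9 reads, so no fold is given. It was the only one of the 10 genes with a mean under 1 RPKM over both libraries, the level below which genes were left out of ratios and counts. Nearly all arginase message was thus that of Arg1.

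The other genes of arginine use were present at moderate levels that differed little between the libraries, apart from Odc1. Slc7a2, a transporter that brings arginine into macrophages (chr8:41947720-42007424), had 17.9 RPKM in the vehicle library and 21.4 RPKM in the clodronate library, a log2 ratio of 0.25. Ass1, the argininosuccinate synthase that returns citrulline towards arginine (chr2:31325789-31376190), had 28.9 and 31.5 RPKM, a log2 ratio of 0.12. Among all genes kept, 33.8% had a ratio at least as high as that of Slc7a2 and 42.7% one at least as high as that of Ass1. Odc1, the ornithine decarboxylase that opens polyamine synthesis (chr12:17551678-17558308), had 71.7 and 117 RPKM and the highest log2 ratio of the arginine members, 0.70. Arg1 exceeded its partner Odc1 in level by 6.63 times in the vehicle library and 5.37 times in the clodronate library. Of the 50-base words in the Ass1 transcript 55.3% also occurred in transcripts of other genes, mostly the annotated gene Gm5424, and of those in Odc1 42.2%, so reads of these genes may be shared with such copies.

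**Figure D1:**
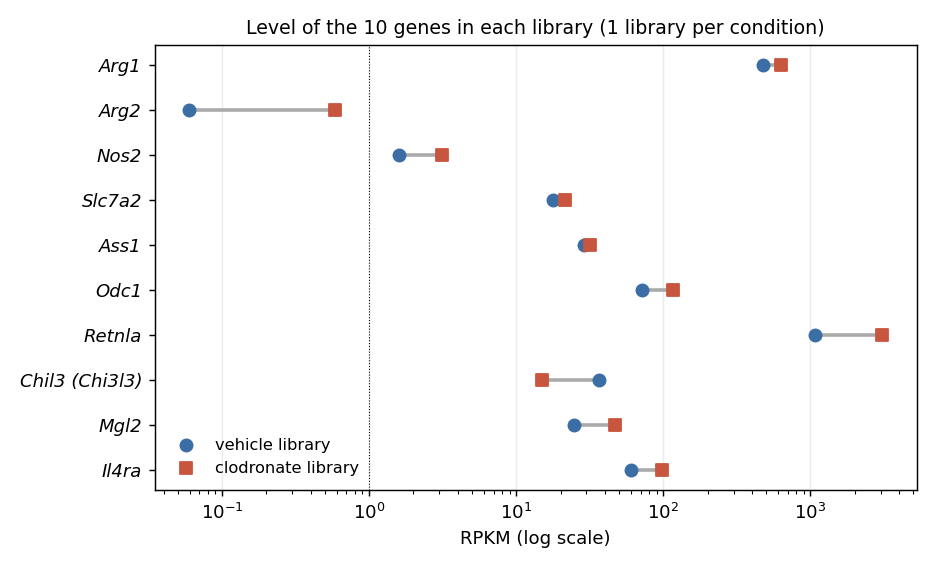
RPKM (log axis) of the 10 genes in the vehicle library (blue circles) and the clodronate library (red squares), 1 library per condition with no error bars; the dotted line marks 1 RPKM. Retnla is the highest gene in both libraries, with Arg1 next, and Chil3 is the only gene whose clodronate value lies to the left of its vehicle value.

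The members of alternative activation held both the largest excess and the only deficit in the clodronate library. Retnla, which encodes the secreted protein RELM-alpha made by alternatively activated macrophages (chr16:48842664-48844574), had 1074 RPKM in the vehicle library and 3060 RPKM in the clodronate library. It moved from rank 90 to rank 19 of all genes, with a 2.85-fold difference and a log2 ratio of 1.51. Chil3, which encodes the chitinase-like protein Ym1 (chr3:105950471-105970482), went the other way, with 36.4 RPKM in the vehicle library and 14.8 RPKM in the clodronate library. Its log2 ratio was -1.24, or 2.36-fold lower. These genes are both textbook targets of IL-4, and the level of Retnla over that of Chil3 was 29.5 in the vehicle library and 206 in the clodronate library.

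The stretches of 250 bases before the transcription start of these genes are shown because the genes differed in opposite directions. They are RefSeq sequences of GRCm38.p6, a later build than that of the loci above, read in the direction of the gene. Retnla lies on the plus strand (chr16:48842359-48842608) and Chil3 on the minus strand (chr3:106167565-106167814). Capitals mark matches to TTC followed after 4 bases of any kind by GAA, the form of site STAT6 is known to bind, and to TTGCNNAA, a form bound by C/EBP factors, each searched on both strands.
Retnla: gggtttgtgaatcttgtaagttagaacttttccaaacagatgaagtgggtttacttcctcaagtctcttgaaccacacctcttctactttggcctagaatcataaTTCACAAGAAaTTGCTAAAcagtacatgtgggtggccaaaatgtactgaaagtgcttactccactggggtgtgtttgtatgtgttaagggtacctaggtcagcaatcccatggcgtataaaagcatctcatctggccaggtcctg
Chil3: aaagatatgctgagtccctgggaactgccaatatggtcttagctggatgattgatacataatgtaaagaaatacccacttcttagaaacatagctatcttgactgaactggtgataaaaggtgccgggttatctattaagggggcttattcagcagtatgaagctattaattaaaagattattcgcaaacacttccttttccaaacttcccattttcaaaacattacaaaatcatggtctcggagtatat
The Retnla stretch held 1 match to each motif. The first, TTCACAAGAA, began 145 bases before the start, and the second, TTGCTAAA, began 134 bases before it. The Chil3 stretch held 0 matches to either of these forms. It does hold TTCTTAGAA, in which TTC and GAA lie closer together, a spacing that was not searched in any stretch. Of 32851 such stretches in the mouse genome 5.85% held the first motif and 9.56% the second. Of the 6 members with a RefSeq promoter (Ass1, Odc1, Retnla, Chil3, Mgl2 and Il4ra) Retnla was the only one with a match. A match describes these letters and does not show that a factor binds there. Its absence says nothing of other forms of site or of sites elsewhere, so the stretches do not set the genes apart in STAT6 binding.

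Mgl2 and Il4ra were also higher in the clodronate library, by less than 2-fold. Mgl2, a C-type lectin that binds galactose-type sugars and marks alternatively activated macrophages and some dendritic cells (chr11:69943858-69951044), had 24.7 RPKM in the vehicle library and 47.1 RPKM in the clodronate library, a log2 ratio of 0.90. Its neighbor and close relative Clec10a had 14.7 and 61.2 RPKM, a log2 ratio of 1.99, so that Mgl2 was 1.68 times Clec10a in the vehicle library and 0.768 times in the clodronate library. The pair shares sequence, since 17.0% of the 50-base words of Mgl2 also occurred in other genes, nearly all of them in Clec10a, and reads may have been split between them. Il4ra, the receptor chain that binds IL-4 and is shared with the IL-13 receptor (chr7:132695795-132722988), had 60.7 and 98.2 RPKM, a log2 ratio of 0.68. For Chil3, 29.4% of such words occurred in other genes, most often in Chil4, which was listed at 0 in both libraries, whereas Retnla, Arg1, Nos2 and Il4ra shared none.

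Read against all genes, the members leaned towards the clodronate library without a 3-fold difference. Genes at least 3-fold apart made up 5.18% of the 10982 genes kept, 2.86% higher and 2.32% lower in the clodronate library, and 0 of the 9 members kept were among them. At 2-fold the shares were 6.95% higher and 6.77% lower, with Retnla as the member above and Chil3 as the member below. Of the 9 members 8 were higher in the clodronate library, and their median log2 ratio was 0.67, beside 51.6% of all genes kept and a median of 0.019. The 5 arginine members had a median of 0.40 and a range from 0.12 to 0.70, and the 4 members of alternative activation a median of 0.79 and a range from -1.24 to 1.51.

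The place of Retnla and Chil3 among all ratios was also taken over genes of higher level. Where the mean reached 10 RPKM (5913 genes), 3.42% of genes passed 2-fold on the higher side and 3.62% on the lower side, while 1.54% had a ratio as high as that of Retnla and 1.96% one as low as that of Chil3. Of the 85 genes whose mean reached 1000 RPKM, small RNA genes left out, 3 passed 2-fold on the higher side and 5 on the lower side, with log2 ratios from -1.68 to 1.85, and Retnla was the third from the top. This level was chosen after the value of Retnla was seen.

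**Figure D2:**
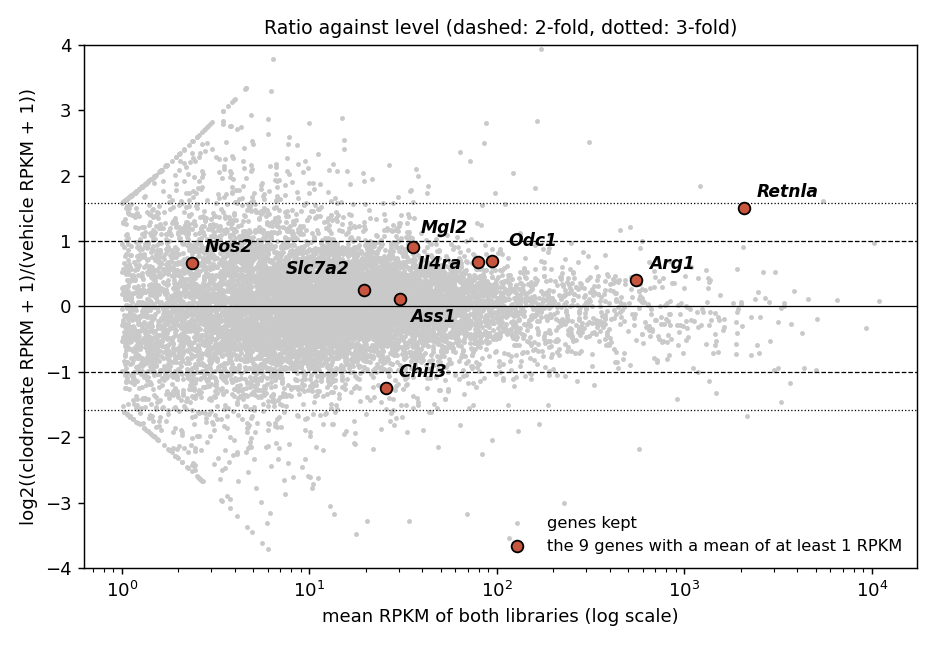
Log2 ratio of clodronate over vehicle (each RPKM + 1) against the mean RPKM of both libraries (log axis) for the genes kept (gray) and the 9 members among them (red); dashed and dotted lines mark 2-fold and 3-fold, and 52 genes beyond 4 on the log2 scale are not drawn. Retnla lies at 1.51, Chil3 at -1.24, and the other members between 0.12 and 0.90.

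The wider pathways were set beside the members through lists chosen with earlier results of these data known. Around arginine, 13 of 17 genes of supply and nitric oxide synthesis were kept, 8 with a higher and 5 with a lower value after clodronate, and their median log2 ratio was 0.25. Prmt1, an enzyme that methylates arginine residues of proteins, was the gene of this list past 3-fold, with 9.12 and 44.0 RPKM. Spr, which completes the synthesis of tetrahydrobiopterin, the cofactor of nitric oxide synthases, had 12.5 RPKM in the vehicle library and was 2.52-fold higher in the clodronate library, whereas Pts, the enzyme before it, had 14.7 and 8.11 RPKM. Of the other nitric oxide synthases, Nos1 was listed at 0 in both libraries and Nos3 had 0 and 0.0227 RPKM. Oat, which turns ornithine towards proline, had 43.1 and 26.1 RPKM, a log2 ratio of -0.70, opposite to that of Odc1.

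Downstream of Odc1, the polyamine genes differed by less than 2-fold and in both directions. Of 18 genes of polyamine and proline synthesis 15 were kept, 9 higher and 6 lower, with a median log2 ratio of 0.17, and 0 passed 2-fold in either direction. Azin1, which protects ornithine decarboxylase from its antizymes, had 34.2 and 47.7 RPKM, and the antizyme Oaz1 had 289 and 239 RPKM. Sat1, which acetylates polyamines for export and breakdown, had 237 and 203 RPKM. The spermidine synthase Srm had 23.7 and 28.6 RPKM, while the spermine synthase Sms had 9.97 and 5.83 RPKM, a log2 ratio of -0.68. Eif5a, the translation factor that carries a residue made from spermidine, had 364 and 435 RPKM.

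Upstream of Retnla and Chil3, the receptor machinery of IL-4 was present, while the cytokines themselves had no value above 0. Il4, Il13 and the decoy receptor Il13ra2 were listed at 0 in both libraries. Il2rg, the partner chain of Il4ra, had 325 RPKM in the vehicle library and 370 RPKM in the clodronate library, Il13ra1 had 11.4 and 12.2 RPKM, and Stat6 had 62.4 and 69.3 RPKM. The 10 genes of this list that were kept had a median log2 ratio of 0.20, 8 higher and 2 lower. Socs1, a feedback inhibitor of cytokine receptors, was the gene past 2-fold, at 0.714 and 3.15 RPKM, and Cish, another of the same family, had 6.71 and 3.90 RPKM.

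Other listed genes known for alternative activation lay mostly on the side of Retnla. This list was chosen with earlier results of these data known, so it is no independent check of that direction. Of 25 listed genes 22 were kept, 16 higher and 6 lower after clodronate, beside 51.6% higher among all genes kept. The median log2 ratio was 0.50 (0.29 after a correction for GC content and transcript length, described at the end). Past 3-fold were 5 genes, all higher, beside 2.86% of all genes kept on that side. They were Ccl24, a chemokine for eosinophils (47.2 and 196 RPKM), Clec10a, Rnase2a (the current symbol of Ear11, an eosinophil-type ribonuclease, 15.1 and 53.5 RPKM), the lectin Cd209a (1.25 and 8.68 RPKM) and the lipoxygenase Alox15 (listed at 0 for vehicle, 2.05 RPKM for clodronate, so that its place past 3-fold rests on the added 1 RPKM). The hemoglobin scavenger receptor Cd163 (17.5 and 42.4 RPKM) and the cytokine Il10 (17.2 and 42.8 RPKM) passed 2-fold, and the mannose receptor Mrc1, with 174 and 289 RPKM, had a log2 ratio of 0.73.

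On the side of Chil3, 0 genes of this list were 2-fold lower, and the lowest ratios belonged to Pparg, a nuclear receptor of lipid metabolism (5.47 and 2.27 RPKM), the beta-glucan receptor Clec7a (174 and 92.2 RPKM) and the chemokine Ccl17 (29.9 and 15.7 RPKM). Their log2 ratios were -0.98, -0.91 and -0.88. The relatives Retnlg and Retnlb of Retnla, and Chil4 and Chil1 of Chil3, were listed at 0 in both libraries. The gene listed as Il4i1 was found only as the read-through locus Nup62-il4i1, whose value (22.6 and 31.1 RPKM) may include reads of Nup62, which was not checked.

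Nos2 belongs with classical activation, and more of its listed companions were lower than higher in the clodronate library, all but Il1b and Il6 by less than 2-fold. Of 20 listed genes of classical activation 17 were kept, 6 higher and 11 lower after clodronate, and the median log2 ratio was -0.14. Of all genes kept, 5664 were higher and 5318 lower, with a median of 0.019. Il1b, which encodes the cytokine interleukin-1 beta, was lower at 278 and 97.2 RPKM, and Il6 at 4.93 and 1.81 RPKM, both past 2-fold. Tnf had 92.9 and 84.3 RPKM. The chemokine Cxcl10, a target of interferons, had 46.8 and 78.6 RPKM, a log2 ratio of 0.74 beside 0.67 for Nos2. It had the highest ratio of this list, and the chemokine Cxcl9 went the other way, with 60.4 and 35.3 RPKM, a log2 ratio of -0.76.

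**Figure D3:**
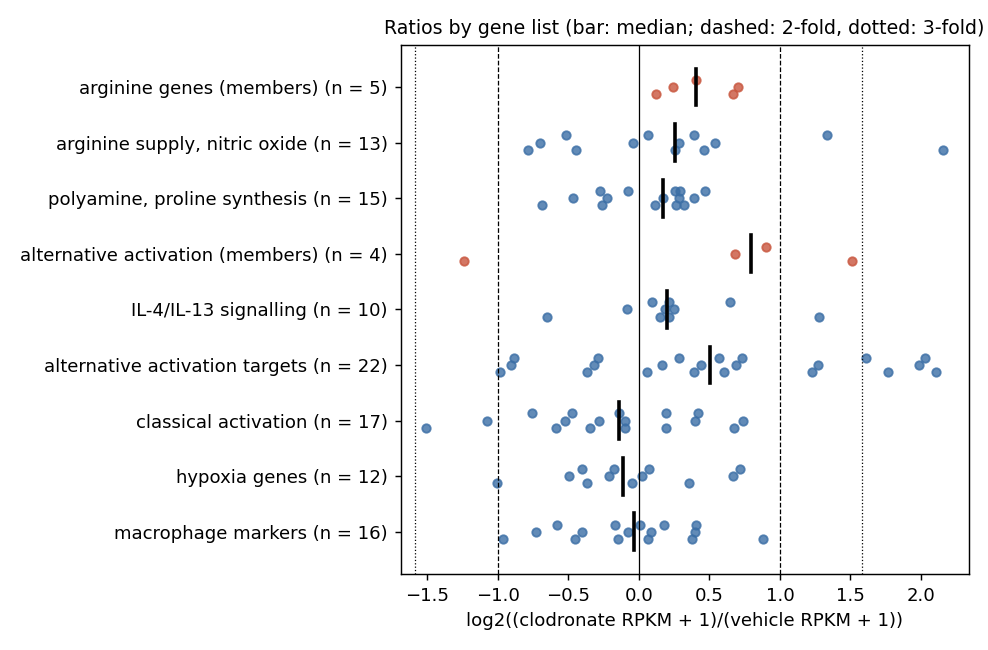
Log2 ratio of clodronate over vehicle (each RPKM + 1) for the genes kept in each list, 1 point per gene, with members in red, other lists in blue and black bars at the median; dashed and dotted lines mark 2-fold and 3-fold. Alternative activation targets reach from -0.98 to 2.11 around a median of 0.50, while polyamine genes lie between -0.68 and 0.47 and macrophage markers have a median of -0.036.

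Markers of other cells that can express these genes were examined in both libraries, and their part in the results was not tested. The 16 macrophage markers had a median log2 ratio of -0.036, 8 higher and 8 lower, so the ratios of Retnla and Chil3 lay outside the range of these markers, from -0.96 to 0.88. Of 8 monocyte markers 7 were kept, with sums of 514 and 555 RPKM and a median of -0.042. The 10 dendritic cell markers, relevant to Mgl2, summed to 47.5 and 43.0 RPKM with 5 kept, and Flt3 had 0 and 0.232 RPKM, but Batf3 went from a listed 0 for vehicle to 5.77 RPKM for clodronate. The 10 eosinophil and mast cell markers summed to 87.9 and 73.9 RPKM, nearly all from the mast cell genes Cpa3, Mcpt4 and Tpsb2, and Siglecf, Epx and Ms4a2 were listed at 0 in both. Of 10 neutrophil markers 9 were found, with sums of 51.8 and 52.8 RPKM and a median of -0.43 over the 5 kept. S100a9, Camp, Ltf and Ngp were at 0 in both, S100a8 had 12.7 and 23.1 RPKM and Csf3r had 26.4 and 19.3 RPKM. The 7 markers of alveolar and peritoneal macrophages, cells known for Chil3 or Retnla, summed to 45.5 and 133 RPKM. That difference came from Lyve1, a hyaluronan receptor of some tissue macrophages, with 41.6 and 124 RPKM, while Car4, Fabp1 and Krt79 were listed at 0 in both. The 10 fibroblast markers summed to 160 and 76.9 RPKM with a median of -0.77. The T and NK cell markers (9 of 10 found) summed to 13.5 and 21.4 RPKM with Cd3e and Ncr1 at 0 in both and Cd2 past 3-fold at 2.39 and 11.1 RPKM. Nkg7, Klrb1c, Gzmb and Cd8a were listed at 0 for vehicle and had 1.02, 0.918, 0.586 and 0.0307 RPKM for clodronate. Cd3d (0.837 and 0.0789 RPKM) and Cd4 (10.3 and 7.72 RPKM) were lower. The 8 endothelial markers summed to 3.34 and 8.26 RPKM with Tek, Emcn and Cldn5 at 0 in both.

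Correction for base composition and transcript length changed one member's call. Ratios in these libraries varied with GC content and with length, and Retnla has a short transcript of 599 nt. After the median ratio of bins of GC content and then of length was subtracted, the log2 ratio of Retnla was 1.84, past 3-fold, and that of Chil3 was -1.04. Arg1 then had 0.58, Odc1 0.70, Mgl2 0.97, Nos2 0.48 and Il4ra 0.40. Each of the 9 members kept its direction under every setting in which it had a value. Most settings could not have changed it. The filters, the highest line per symbol and leaving out small RNA genes left these ratios as they were. Another pseudocount cannot change a sign, and centring and scaling shifted all members by nearly the same small amount.

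**Figure D4:**
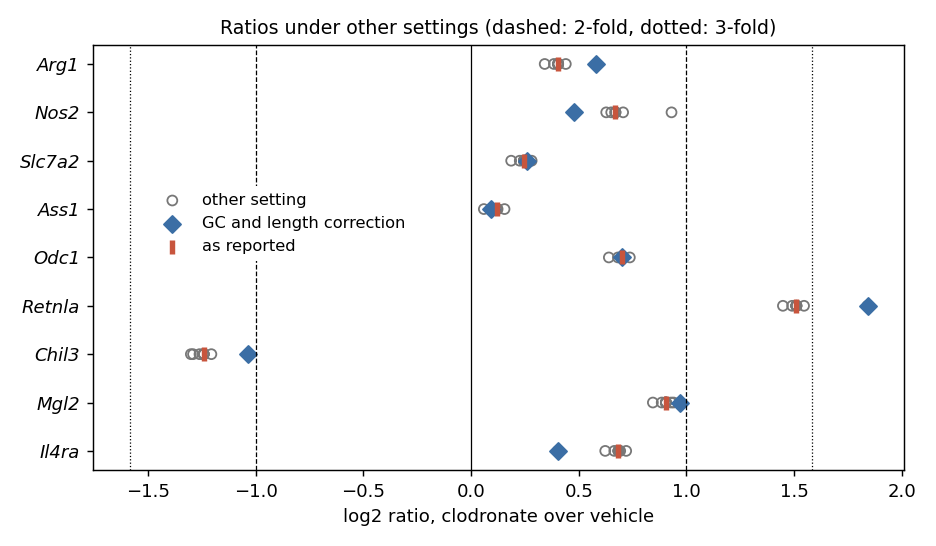
Log2 ratio of clodronate over vehicle of the 9 members kept, as reported (red bars), after correction for GC content and length (blue diamonds) and under the other settings (gray circles); dashed and dotted lines mark 2-fold and 3-fold. Retnla runs from 1.45 to 1.84 and Chil3 from -1.30 to -1.04, and no member crosses 0.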

How the data were processed

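Polyadenylated RNA of 2 libraries, 1 per condition, was sequenced. The authors deposited RPKM values for 23170 loci of mm9 in each library. The submitters' processing notes name CASAVA 1.8.2, TopHat2 2.0.9, Bowtie 0.12.9, Cufflinks 2.2.1 and Cuffdiff. How reads matching several genes were counted is not given in the sources used here. For 26 loci whose symbol was numeric the accession served as name. Values of 1 symbol were summed, giving 22886 genes, of which 10982 had a mean of 1 RPKM or more and were kept. Ratios used a pseudocount of 1 RPKM. With 1 library per condition no test was run, and genes at least 3-fold or 2-fold apart were counted.

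Read totals were not used, since the files hold none. For loci with 1 accession and a transcript over 1000 nt, low values of RPKM times length in kb fell in steps of 0.0782 (vehicle) and 0.0966 (clodronate). Of 348 and 637 values below 3.5 steps, 81.0% and 81.2% lay within 0.2 of a whole step. Taken as 1 read, the steps imply about 12800000 and 10300000 reads. These are estimates and no interval was computed.

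The members and the 18 lists (212 entries, 210 found, through RefSeq synonyms where needed) were chosen with earlier results of these data known. All members were named, genes of the lists were open to naming, and those past 3-fold were always named. Lengths, GC content and 50-base words were those of GENCODE M21 transcripts, joined by RefSeq accession (98.7% of genes kept), promoters from RefSeq GRCm38.p6. Ratios of the members, counts past a fold and medians of lists with at least 3 genes left were recomputed, where they had a value, with 0.1 as pseudocount, without the filter, with minimum means of 5 or 10 RPKM, with median centring, upper quartile scaling, centring on the macrophage markers, the highest line per symbol, correction for GC content and length in 10 bins each, leaving out small RNA genes, and 2-fold in place of 3-fold. The minimum of 10 RPKM was added after seeing the data. The code that counts genes past a fold was checked on simulated ratios, which says nothing of the error of the ratios here. Python 3.11.15, numpy 2.4.6, pandas 2.3.3 and matplotlib 3.10.9 were used.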

Additional observations from a re-analysis of the deposited data

How the results depend on the processing

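No paired analysis was possible because there was 1 library in each condition. A ratio or median was taken as moved when it shifted by over 1.5 times. The median log2 ratio of the members lay between 0.48 and 0.71 over the alternatives, that of the arginine members between 0.32 and 0.49 and that of the alternative activation members between 0.69 and 0.83. After correction for GC content and length the median of the arginine supply list was 0.13 (0.032 with no filter) and that of the polyamine list 0.054. Retnla alone passed 3-fold after that correction (1 member higher), and at 2-fold 1 member was higher and 1 lower. Over all genes, 314 were at least 3-fold higher and 255 lower. The counts were 532 and 480 with a pseudocount of 0.1, 127 and 101 with a minimum mean of 5 RPKM, 83 and 62 with one of 10 RPKM, and 763 and 744 at 2-fold, settings that change by construction how many genes can pass. Some medians changed sign, the macrophage list from -0.036 to 0.027 after correction for GC content and length, the monocyte list from -0.042 to 0.014 with no filter and to 0.070 with a minimum mean of 5 or 10 RPKM, the neutrophil list from -0.43 to 0.24 with one of 5 RPKM, and all genes from 0.019 to -0.038 with upper quartile scaling. The epithelial list had a median of 0 with no filter against -1.0016 with the filter. The filter settings change which genes enter a median. Without a filter the epithelial list also takes in Epcam, Krt19 and Cldn4, listed at 0 in both libraries and so with a log2 ratio of 0. Depth limits Arg2, at about 1 and 9 reads, and Nos2, at about 85 and 135 reads.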

Other observations

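The hypoxia list holds genes that respond to low oxygen. Both libraries are labelled aerobic, so ratios of these genes compare aerobic sorts with each other and do not test that label. All 12 genes of the list were kept, 5 higher and 7 lower after clodronate, and the median log2 ratio was -0.11. Hif1a had 56.6 RPKM in the vehicle library and 57.5 RPKM in the clodronate library, and the glucose transporter Slc2a1 had 86.2 and 83.1 RPKM. Adm, which encodes adrenomedullin, was the gene past 2-fold, at 3.88 and 1.43 RPKM. Arg1 and Nos2 are also known to respond to hypoxia, and their log2 ratios were 0.40 and 0.67.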
